A study of Mus musculus with 9 samples.

Results

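The genes described here are the heat shock proteins and J-domain (DnaJ) chaperones of mouse midbrain dopamine (DA) neurons at E15.75, a stage soon after most of these neurons have formed. They were taken by symbol: every gene of the Hspa, Hspb, Hspd, Hspe and Hsph series, every numbered Dnaja, Dnajb and Dnajc gene, and Hsp90aa1, Hsp90ab1, Hsp90b1 and Bag3. Hspa5, Dnajc6, pseudogenes and opposite-strand transcripts were left out. This gave 73 of the 47729 genes in the count files. The rule itself uses symbols only, with no measured value. They comprised 3 HSP90 genes, 10 of the HSP70 family, 3 of the related HSP110 family, the 2 mitochondrial chaperonin genes, 7 small heat shock protein genes, 4 DNAJA, 13 DNAJB and 27 DNAJC genes, and 4 others.

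Heat shock proteins are molecular chaperones that bind unfolded or client proteins. HSP70 proteins do so in cycles of ATP hydrolysis that J-domain proteins start and that HSP110 proteins and BAG proteins, as nucleotide exchange factors, end, while HSP90 acts later on a narrower set of clients such as kinases and steroid receptors. Some members are made at all times in every cell, and others, such as Hspa1a, Hspa1b, Hspb1, Dnajb1 and Bag3, are induced by heat shock factor 1 (HSF1) on protein stress. Neurons are known for a high resting level of the constitutive HSP70 and HSP90 proteins, and several J-domain proteins serve the synaptic vesicle cycle or are linked to inherited parkinsonism.

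RNA was sequenced from neurons sorted for a yellow fluorescent reporter that Cre recombinase had switched on. All embryos were of the C57/Bl6 strain and, controls included, carried 1 Pitx3-Cre allele, with Cre made from the Pitx3 locus in postmitotic DA neurons, and the Rosa-lox-stop-lox-Yfp reporter. Dot1l(+/+) embryos had 0 floxed alleles of Dot1l, the histone H3 lysine 79 methyltransferase gene, Dot1l(fl/+) embryos had 1 and Dot1l(fl/fl) embryos had 2, and each library was a pool of embryos. The comparisons ask how chaperone transcripts stood at this stage in neurons with 1 or 2 floxed Dot1l alleles. Libraries analysed were 3 Dot1l(+/+), 3 Dot1l(fl/+) and 2 labelled Dot1l(fl/fl), with totals between 13616922 and 43674673 counts, of which the members took between 0.706% and 0.794%.

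The sort and the labels were checked before the members. All 9 dopaminergic markers were present, with a summed level between 3986 and 5388 CPM (counts scaled to the same total in each library by TMM factors), against at most 40.0 CPM for 7 blood genes, 17.3 CPM for 6 endothelial genes, 117.1 CPM for 6 microglial genes, 256.1 CPM for 7 radial glia genes, 12.6 CPM for 4 oligodendrocyte precursor genes and 0.492 CPM for the 3 muscle genes found. Dot1l itself was at 64.9 and 99.1 CPM in the Dot1l(fl/fl)-labelled libraries 1 and 2, against 84.6 to 105.2 CPM in Dot1l(+/+) and 65.6 to 76.2 CPM in Dot1l(fl/+). The floxed segment is a single exon, so a count over the whole gene checks the labels only in part, but Dot1l(fl/fl) 2 lay inside the Dot1l(+/+) range, and the leading values are therefore also given without it. In sorted bulk RNA, fewer cells of a type and less RNA per cell cannot be told apart.

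Heat shock factors bind runs of the unit GAA in alternating orientation. The bases upstream of the members were therefore read from RefSeq promoters on GRCm38.p6, which held 59 of the 73 members; Hspa8, Hsp90aa1 and Hsp90ab1 were among the 14 not in that table. The motifs searched on both strands over 250 bases before the start were GAANNTTC and TTCNNGAA, each its own reverse complement, and a run of 3 units in which one of each shares its middle unit. A motif of 2 units was found in 14 of 59 members (23.7%) and in 14.6% of all 27025 genes with a promoter in the table. A run of 3 units was found in 3 members (5.09%) and in 0.514% of all genes. Of the stress-inducible members, Dnajb1, Bag3 and Hspa4l had a promoter in the table and no motif. The stretches below are shown because they carry the 3-unit runs, the shared upstream element of the inducible HSP70 pair, or the motifs of 2 further stress-inducible members, with the motif in capitals:
Hspe1, chr1:55088053-55088082, plus strand: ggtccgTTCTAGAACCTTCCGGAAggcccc
Hspd1, the same bases on the minus strand: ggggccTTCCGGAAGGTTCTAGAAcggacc
Dnajb6, chr5:29735844-29735872, plus strand: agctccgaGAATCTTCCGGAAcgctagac
Hspa1a, chr17:34972242-34972271, minus strand: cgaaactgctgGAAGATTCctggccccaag
Hspa1b, chr17:34959324-34959353, minus strand: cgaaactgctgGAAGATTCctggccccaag
Hspb1, chr5:135887811-135887840, plus strand: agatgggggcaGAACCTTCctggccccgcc
Hsph1, chr5:149636351-149636380, minus strand: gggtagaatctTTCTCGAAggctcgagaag
Hspd1 and Hspe1, which encode the large and the small ring of the mitochondrial chaperonin, are transcribed away from each other, and 1 stretch with 2 overlapping runs lies before both starts. The windows of Hspa1a and Hspa1b held the same 30 bases, and 247 of their 250 upstream bases were identical. The stretches of Hspd1, Hspe1, Dnajb6 and Hsph1 overlap annotated exons. A match to these letters is a description and not a binding site.

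**Figure D1:**
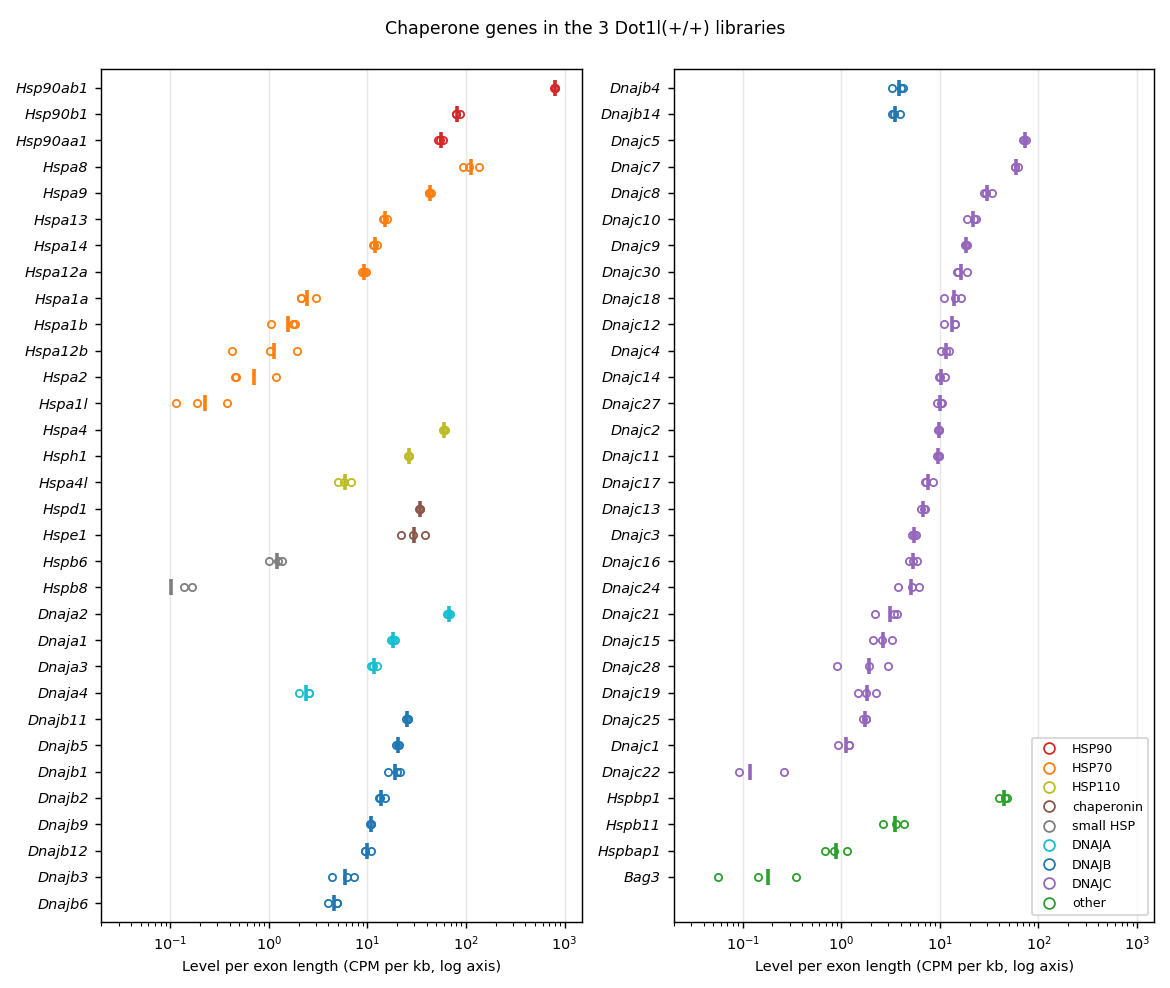
Level of each of the 63 members tested in the 3 Dot1l(+/+) libraries, as CPM per kilobase of merged exons on a log axis; open circles are libraries, vertical bars are means, colours are families, and libraries at 0 (1 each for Hspb8 and Dnajc22) are not drawn. Hsp90ab1 stands apart at a mean of 797.4 CPM per kb, and the lowest of the members drawn is Hspb8 at a mean of 0.101 CPM per kb.

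Among the members, the cytosolic HSP90 gene Hsp90ab1, the constitutive HSP90, had the highest level in Dot1l(+/+) neurons. Per kilobase of merged exons it stood at 797.4 ± 6.38 CPM per kb (SD, n = 3), 7.13 times the level of the next member. That was Hspa8, the constitutive cytosolic HSP70, at 111.8 ± 21.6 CPM per kb. Next came Hsp90b1, the HSP90 of the endoplasmic reticulum, at 81.8 ± 3.96, then Dnajc5, the cysteine string protein of synaptic vesicles, at 72.3 ± 2.64, and Dnaja2, a cytosolic partner of Hspa8, at 66.9 ± 2.47 CPM per kb. The Dot1l(+/+) libraries of each of these 5 members did not overlap those of the member below it in the order. From rank 6 the order was closer: Hspa4, an HSP110 nucleotide exchange factor, at 60.0 ± 1.40, overlapped Dnajc7, a J-domain protein that also binds HSP90, at 59.1 ± 1.94, and Dnajc7 overlapped Hsp90aa1 at 55.2 ± 3.28 CPM per kb. Hsp90ab1 alone took between 32.1% and 35.1% of all member counts in each of the 8 libraries, and the HSP90 family between 39.8% and 42.0%.

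Of the 8 stress-inducible members, 4 had a mean above 50 CPM in Dot1l(+/+) and the other 4 a mean under 10 CPM. Hsp90aa1, the inducible HSP90, Hsph1, the inducible HSP110, and Dnajb1, the inducible DNAJB, stood at 55.2 ± 3.28, 26.1 ± 0.176 and 19.2 ± 2.62 CPM per kb in Dot1l(+/+). Hspa4l, a further HSP110 gene, was at 69.4 ± 11.1 CPM, which over its long exons came to 5.88 ± 0.944 CPM per kb. Hspa1a and Hspa1b, the inducible HSP70 genes, were at 2.42 ± 0.488 and 1.55 ± 0.440 CPM per kb, and Hspa8 exceeded Hspa1a per kilobase between 31.0 and 63.1 times across the 8 libraries. Bag3, which links HSP70 to selective autophagy, had between 2 and 23 counts in every library, a level between 0.0703 and 1.15 CPM. Hspb1, the inducible small heat shock protein, had no count in 5 libraries and 2, 7 and 3 counts in the others. A count of 0 allowed a level of up to 0.220 CPM in the shallowest library and 0.0687 CPM in the deepest.

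The 10 members that did not pass the filter on low counts were Hspb1, Hspb2, Hspb3, Hspb7, Hspb9, Dnajb7, Dnajb8, Dnajb13, Dnajc5b and Dnajc5g. Of these, 6 had no count in any library (Hspb2, Hspb7, Dnajb7, Dnajb8, Dnajc5b and Dnajc5g). Small heat shock proteins were therefore nearly undetected as a family: of 7, only Hspb6 and Hspb8 passed, and Hspb6 was the highest at 1.204 ± 0.175 CPM per kb in Dot1l(+/+). All members of the HSP90, HSP70, HSP110, chaperonin and DNAJA families passed, with 10 of 13 DNAJB and 25 of 27 DNAJC genes, 63 members in all of 17988 genes tested.

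Several members share sequence with other genes, and the counting of such reads is not given in the sources used here. Of all 50-base words in the longest transcript, 60.3% of Hspa1a and 62.3% of Hspa1b also occurred in another gene, chiefly the other of the pair. The share was 58.5% for Hsp90aa1, 51.7% for Hspb1, 51.4% for Hspa8, 44.8% for Hspd1 and 35.8% for Dnajb6. Values of these 7 genes are uncertain to that extent. Hspd1 and Hspe1 overlap on opposite strands at their starts. The identifier deposited as Hspa14 (chromosome 2, 3504527 to 3512790, minus strand) carries another gene name, Gm45902, in GENCODE M21. A second gene at the same locus has the name Hspa14 there, and 5.67% of the identifier's words also occurred in it. Values given for Hspa14 are those of the deposited identifier, which was placed in the HSP70 family by its symbol.

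Libraries of 1 genotype agreed closely for most members. The median pooled SD within genotypes was 0.11 on the log2 CPM scale for the 45 members with a mean of at least 10 CPM, and 0.16 for all 9953 such genes. Hspa8 varied more than most genes of its level. Its levels were 397.0, 580.5 and 465.4 CPM in Dot1l(+/+) and 483.1, 602.0 and 427.8 CPM in Dot1l(fl/+), a pooled SD of 0.24, above that of 98.2% of 271 genes within 0.5 log2 units of its level. Hspe1 varied too, with 43.2, 56.2 and 32.6 CPM in Dot1l(+/+) and an SD above that of 95.7% of genes at its level. Its partner Hspd1 had the smallest SD of 2124 genes at its level, 0.02, with 90.8, 88.8 and 90.3 CPM in Dot1l(+/+). The largest gene-wise dispersions among members belonged to Dnajc22, Hspb8 and Bag3, each with at most 37 counts in a library.

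**Figure D2:**
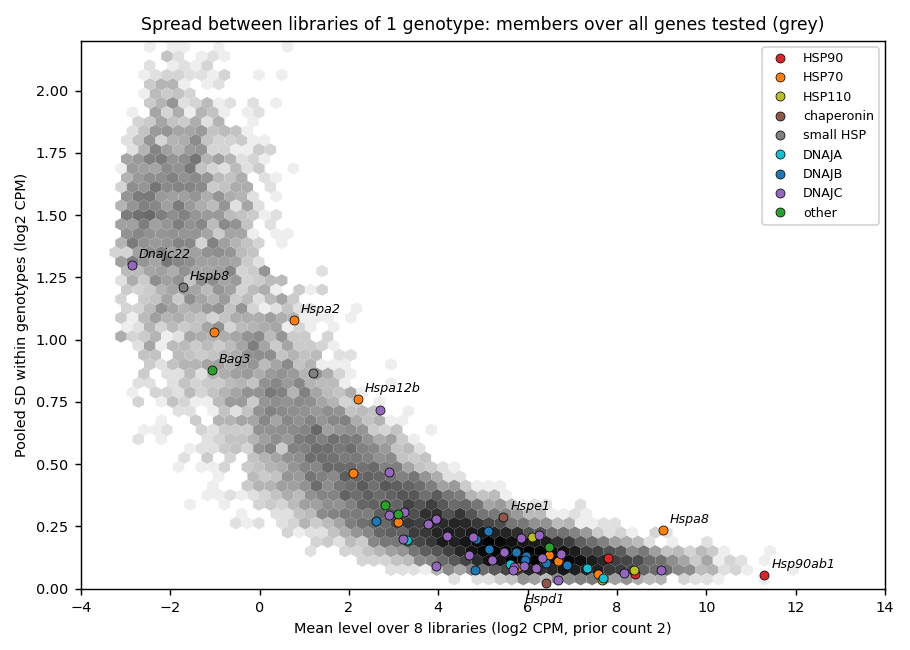
Pooled SD of log2 CPM within genotypes against the mean log2 CPM over the 8 libraries, for all 17988 genes tested (grey hexagons, darker with more genes on a log scale) and the 63 members (coloured by family). Hspa8 lies at the upper edge of the genes at its level with an SD of 0.24 and Hspd1 at the lower edge with 0.02.

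In the Dot1l(fl/fl)-labelled libraries, no member passed the adjusted threshold against Dot1l(+/+). The smallest edgeR adjusted p of a member was 0.287, for Hspa8, and 0.0% of all 17988 genes passed. At an unadjusted p under 0.05, 4 of 63 members (6.35%) and 9.27% of all genes differed, so the members' share was no higher than that of all genes. Of the 4, Hspa8, Hspa14 and Hsp90ab1 were higher and Dnajc14 was lower, against 4.24% of all genes higher and 5.03% lower. With DESeq2, 197 genes were called in this comparison and none was a member, with a smallest member adjusted p of 0.0905. Without Dot1l(fl/fl) 2 the count at an unadjusted p under 0.05 was 6 of 64 members (9.38%) against 11.1% of genes, and without Dot1l(fl/fl) 1 it was 3 of 64 (4.69%) against 6.88%.

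Hspa8 had the smallest p. It lies on chromosome 9 from 40800984 to 40810087 on GRCm38 and keeps clathrin uncoating and basal protein folding going in neurons. It was at 633.6 and 638.0 CPM in the Dot1l(fl/fl)-labelled libraries, both above the highest of the other 6 libraries, 602.0 CPM. The log2 fold change against Dot1l(+/+) was 0.40 ± 0.13 (SE; 95% interval 0.14 to 0.67, a 1.32-fold level). This estimate was 0.40 without Dot1l(fl/fl) 2 and 0.41 without Dot1l(fl/fl) 1. The value rested more on the spread among Dot1l(+/+) libraries: without Dot1l(+/+) 2 it was 0.56, with an edgeR adjusted p of 0.0478. With no filter on low counts the edgeR adjusted p was 0.0319, and with DESeq2 it was 0.327 and the unadjusted p was no longer under 0.05; over all alternatives the log2 fold change lay between 0.28 and 0.56.

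A list of early response genes, chosen as markers of cell dissociation, summed higher in the same 2 libraries. Summed over 13 such early response genes, among them Fos, Jun and Dusp1, the level was 1916 and 1919 CPM in the Dot1l(fl/fl)-labelled libraries, 1386 to 1701 CPM in Dot1l(+/+) and 1488 to 1742 CPM in Dot1l(fl/+). Of the 13, 8 were above every Dot1l(+/+) library in both, against 12.1% of all genes, and none passed the adjusted threshold. The others, Fosb, Jund, Egr1, Zfp36 and Socs3, lay within the Dot1l(+/+) range. Summed blood genes were at 17 and 40 CPM, against 13.7 to 18.1 CPM in Dot1l(+/+), and the summed dopaminergic markers were at 4613 and 3986 CPM, against 4857 to 5388 CPM. Their part in the values of Hspa8 and the other members was not tested.

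The identifier deposited as Hspa14, a symbol for an HSP70 bound to the ribosome, has another gene name in GENCODE M21. Its counts are therefore not shown to be those of that HSP70. It was at 61.7 and 72.0 CPM in the Dot1l(fl/fl)-labelled libraries. In Dot1l(+/+) it was at 50.3, 54.3 and 49.9 CPM, and in Dot1l(fl/+) at 51.6, 52.8 and 49.9 CPM, so both libraries lay above the other 6. The log2 fold change was 0.38 ± 0.14 (SE; interval 0.10 to 0.66), with an edgeR adjusted p of 0.345, and it was 0.26 without Dot1l(fl/fl) 2, with an unadjusted p no longer under 0.05, and 0.48 without Dot1l(fl/fl) 1.

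Hsp90ab1, on chromosome 17 from 45567775 to 45573271, had the narrowest interval of the members. It was at 2369, 2401 and 2404 CPM in Dot1l(+/+), at 2445, 2653 and 2499 CPM in Dot1l(fl/+) and at 2786 and 2560 CPM in the Dot1l(fl/fl)-labelled libraries. Neither genotype with floxed alleles overlapped Dot1l(+/+), and the 2 overlapped each other. The log2 fold change of Dot1l(fl/fl) was 0.16 ± 0.07 (SE; interval 0.02 to 0.30), and the edgeR adjusted p was 0.443. The estimate was 0.22 without Dot1l(fl/fl) 2, 0.10 without Dot1l(fl/fl) 1, and 0.08 with an offset for GC content and exon length. The unadjusted p was no longer under 0.05 with that offset, with no filter, with 2 genotypes alone, without Dot1l(fl/fl) 1 and without Dot1l(+/+) 1. Its stress-inducible counterpart Hsp90aa1 was at 214.8, 230.9 and 205.4 CPM in Dot1l(+/+) and 213.0 and 231.2 CPM in the Dot1l(fl/fl)-labelled libraries, with a log2 difference of 0.03 (interval -0.19 to 0.26). Hsp90b1 differed by -0.01 (interval -0.20 to 0.18).

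Dnajc14, a J-domain protein of the endoplasmic reticulum membrane, was the member lower at an unadjusted p under 0.05. It was at 65.9, 73.4 and 64.3 CPM in Dot1l(+/+), at 57.2, 56.0 and 63.6 CPM in Dot1l(fl/+) and at 54.7 and 53.7 CPM in the Dot1l(fl/fl)-labelled libraries. The 3 genotypes did not overlap. The log2 fold change was -0.32 ± 0.13 (SE; interval -0.60 to -0.05), with an edgeR adjusted p of 0.443, and it was -0.31 without Dot1l(fl/fl) 2, -0.34 without Dot1l(fl/fl) 1 and -0.26 without Dot1l(+/+) 2, in each case with an unadjusted p no longer under 0.05. The exons of Dnajc14 lie in a locus that other annotated genes overlap on both strands. Dnajc13, an endosomal J-domain protein studied in familial parkinsonism, was at 82.6, 76.6 and 84.0 CPM in Dot1l(+/+), 74.8, 68.5 and 65.1 CPM in Dot1l(fl/+), and 65.9 and 70.5 CPM in the Dot1l(fl/fl)-labelled libraries. Both genotypes with floxed alleles lay below Dot1l(+/+) and overlapped each other, with a log2 fold change of -0.25 ± 0.12 (SE) for Dot1l(fl/fl) and an edgeR adjusted p of 0.554.

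**Figure D3:**
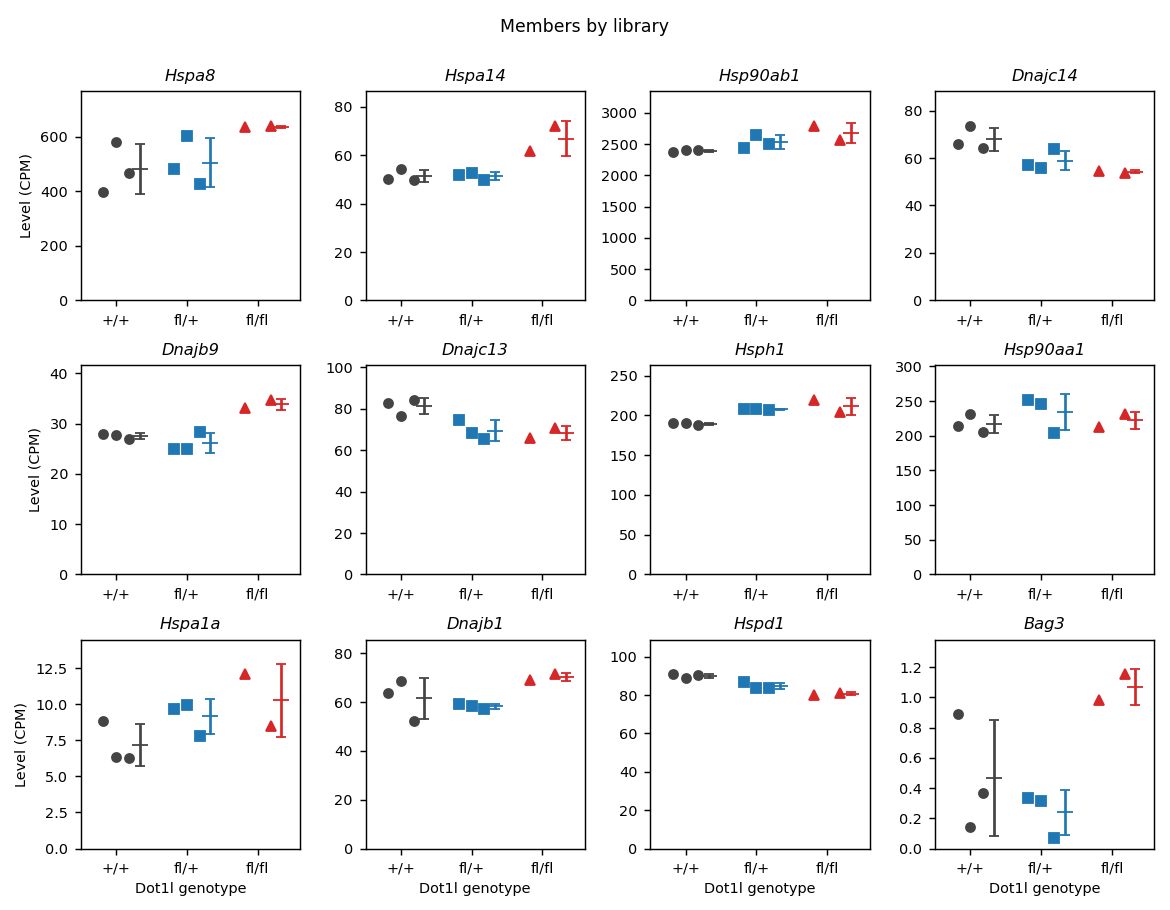
Level in CPM of 12 members in each library, with an axis from 0; points are libraries by Dot1l genotype, and the bar beside them is the mean with its SD (n = 3, 3 and 2). Both Dot1l(fl/fl) libraries lie above all others for Hspa8 (633.6 and 638.0 CPM), Hspa14, Dnajb9, Dnajb1 and Bag3. Bag3 is at 0.984 and 1.15 CPM there, with at most 23 counts in a library. Both Dot1l(fl/fl) libraries lie below all others for Dnajc14 and Hspd1 (80.1 and 81.1 CPM). None of these differences passed the adjusted threshold.

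Of the stress-inducible members, none differed at an unadjusted p under 0.05 in any comparison of all 8 libraries. With fewer libraries, 2 members were higher at that level in Dot1l(fl/fl). Against Dot1l(+/+), Hspa1a was so without Dot1l(+/+) 1. Against Dot1l(fl/+), Dnajb1 was so with 2 genotypes alone, without Dot1l(+/+) 2 and without Dot1l(+/+) 3. Hspa1a was at 8.84, 6.35 and 6.31 CPM in Dot1l(+/+), 9.71, 9.98 and 7.80 CPM in Dot1l(fl/+), and 12.1 and 8.49 CPM in the Dot1l(fl/fl)-labelled libraries. These overlapped, with a log2 difference of 0.53 ± 0.29 (SE; interval -0.07 to 1.12) that was 0.76 without Dot1l(fl/fl) 2 and 0.25 without Dot1l(fl/fl) 1. The log2 difference of Hspa1b was -0.13 (interval -1.005 to 0.75), and since the 2 genes share most of their sequence, their reads may not be cleanly divided. Hsph1 was at 190.3, 190.8 and 188.4 CPM in Dot1l(+/+), 208.3, 207.6 and 207.0 CPM in Dot1l(fl/+), and 219.0 and 203.8 CPM in the Dot1l(fl/fl)-labelled libraries, so that all 5 libraries with floxed alleles lay above Dot1l(+/+). Its log2 fold change was 0.16 ± 0.10 (SE) and its edgeR adjusted p 0.675. Dnajb1 was at 63.9, 68.7 and 52.4 CPM in Dot1l(+/+) and 69.1 and 71.4 CPM in the Dot1l(fl/fl)-labelled libraries, without overlap and with a log2 difference of 0.19 (interval -0.09 to 0.47). Hspa4l differed by -0.05 (interval -0.36 to 0.26). Bag3 was at 0.984 and 1.15 CPM in the Dot1l(fl/fl)-labelled libraries, above all others, the highest of which was at 0.888 CPM. With under 24 counts a library, its interval ran from -2.16 to 4.55. A change of several fold in either direction was therefore not detectable at this depth.

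Among the organelle chaperones, none differed from Dot1l(+/+) at an unadjusted p under 0.05 in the main fit, apart from Dnajc14 above. Hspd1 was lower at that level in edgeR with the offset for GC content and exon length. Dnajc15 was higher at that level in edgeR without Dot1l(+/+) 2. In mitochondria, Hspd1 was at 86.5, 83.6 and 83.9 CPM in Dot1l(fl/+) and at 80.1 and 81.1 CPM in the Dot1l(fl/fl)-labelled libraries, so the 3 genotypes did not overlap and the order of the levels ran against the number of floxed alleles. Its log2 fold change was -0.16 ± 0.11 (SE), with an edgeR adjusted p of 0.727, while Hspe1, from the shared start region, differed by 0.03 (interval -0.36 to 0.41). Hspa9, the mitochondrial HSP70 (mortalin), differed by 0.04 (interval -0.17 to 0.25), Dnaja3, its J-domain partner, by 0.18 (-0.12 to 0.48), and Dnajc15 and Dnajc19 of the import motor by 0.28 (-0.16 to 0.72) and -0.05 (-0.70 to 0.59). Over the 8 mitochondrial members the median log2 fold change was -0.0006. In the endoplasmic reticulum, Dnajb9, a J-domain protein induced by the unfolded protein response, was at 33.02 and 34.63 CPM in the Dot1l(fl/fl)-labelled libraries and between 24.9 and 28.4 CPM in the other 6. Its log2 fold change against Dot1l(+/+) was 0.30 ± 0.17 (SE; interval -0.05 to 0.64), with an edgeR adjusted p of 0.623. Dnajb11 differed by 0.18 (-0.07 to 0.43), Hspa13 by 0.12 (-0.12 to 0.36), Dnajc10 by 0.08 (-0.17 to 0.33) and Dnajc3 by -0.06 (-0.45 to 0.34). Dnajb14, of the membrane of this compartment, differed by -0.24 (-0.55 to 0.07). Over 9 members of this compartment, a list that did not hold Dnajc14, the median was 0.10.

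The remaining cytosolic members had intervals that held 0 in this comparison. Dnaja1 and Dnaja2, the J-domain proteins that deliver clients to Hspa8, differed by 0.08 (-0.14 to 0.30) and 0.14 (-0.06 to 0.35). Dnajb2, a neuronal J-domain protein, differed by 0.15 (-0.13 to 0.43) and Dnajb6, which binds aggregating proteins, by 0.08 (-0.30 to 0.47). Dnajc5 and Dnajc7 differed by -0.03 (-0.22 to 0.15) and -0.04 (-0.24 to 0.16), and Dnajc12, a partner of the aromatic amino acid hydroxylases that include tyrosine hydroxylase, by -0.12 (-0.44 to 0.21). Hspa4 differed by -0.02 (-0.22 to 0.18) and Hspa12a, a divergent HSP70, by 0.15 (-0.11 to 0.41). Hspa2, with between 9 and 88 counts a library, had an interval from -1.43 to 1.70. Hspb6, a small heat shock protein named after its values were seen, was at 4.10 and 0.576 CPM in the 2 libraries, on either side of the 2.33 to 3.13 CPM of Dot1l(+/+).

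Without Dot1l(fl/fl) 2 the log2 difference from Dot1l(+/+) was -0.30 for Dnajc13, 0.17 for Dnajb1, -0.17 for Hspd1 and 0.26 for Dnajb9. It turned sign for several members near 0, among them Dnaja1 (-0.04), Dnajb6 (-0.19), Dnajc10 (-0.07), Hspe1 (-0.06) and Hsp90aa1 (-0.03), and for Hspa2 (-1.897).

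As a group the members lay slightly above the other genes in the Dot1l(fl/fl)-labelled libraries. The median log2 fold change over the 63 members was 0.10, against -0.003 over all genes tested, and 42 members (66.7%) were above 0, against 49.5% of genes. Among those with a mean of at least 10 CPM, the median was 0.08 for 45 members and -0.007 for 9953 genes. The HSP70 family had a median of 0.26 with 9 of 10 above 0. In that family, Hspa1a, Hspa12b, Hspa1b, Hspa2 and Hspa1l had a mean under 10 CPM, and Hspa14 was counted by its symbol. The DNAJB family had a median of 0.14 with 9 of 10 above 0 and the DNAJA family 0.16 with 4 of 4. The 25 DNAJC genes had a median of 0.007 with 13 above 0. Every Dot1l(fl/fl) library lay above every Dot1l(+/+) library for 14 members (22.2%), against 12.1% of all genes, and below for 3 (4.76%), against 11.6%. Without Dot1l(fl/fl) 2 these counts were 23 above, against 28.6% of genes, and 8 below, against 27.0%. With an offset for GC content and exon length the median over members was 0.05. The median of each library's log2 difference from the Dot1l(+/+) mean, taken over the members, was -0.001, 0.03 and -0.01 in Dot1l(+/+), 0.01, 0.07 and 0.04 in Dot1l(fl/+), and 0.08 and 0.10 in the Dot1l(fl/fl)-labelled libraries, with an SD within genotypes of 0.02. Over the 45 members with a mean of at least 10 CPM, it was 0.058 and 0.093 in the Dot1l(fl/fl)-labelled libraries. It reached 0.071 in Dot1l(fl/+) and 0.049 in Dot1l(+/+), so Dot1l(fl/fl) 1 lay within the Dot1l(fl/+) range.

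**Figure D4:**
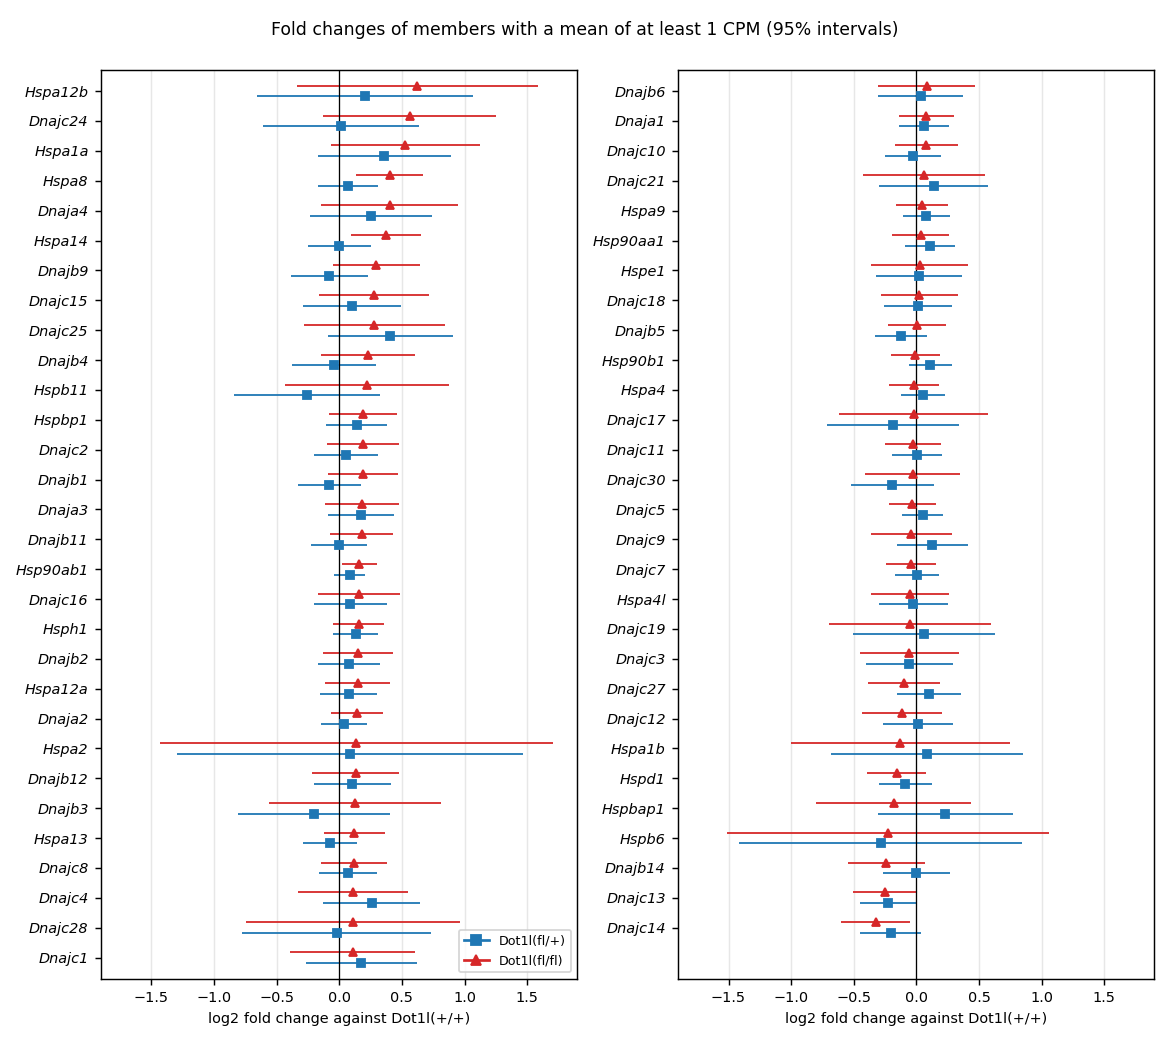
Log2 fold change against Dot1l(+/+) with its 95% interval from edgeR for the 59 members with a mean of at least 1 CPM, for Dot1l(fl/+) (blue squares) and Dot1l(fl/fl) (red triangles), ordered by the latter over both panels. For Dot1l(fl/fl) the intervals of Hspa8, Hspa14 and Hsp90ab1 lie above 0 and that of Dnajc14 below 0; for Dot1l(fl/+) every interval holds 0.

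In Dot1l(fl/+) neurons no member differed from Dot1l(+/+) even at an unadjusted p under 0.05, against 5.02% of all genes (2.16% higher and 2.86% lower, and 0.0% after adjustment). DESeq2 gave 1 member at that level, Dnajc13. The smallest edgeR adjusted p of a member was 0.940. Dnajc13 had the smallest p of the members, with a log2 fold change of -0.22 ± 0.11 (SE; interval -0.45 to 0.00), and Dnajc14 differed by -0.20 ± 0.12 (SE; interval -0.45 to 0.04). Hspa8 differed by 0.07 (interval -0.17 to 0.31), Hsp90ab1 by 0.08 (-0.04 to 0.20), Hspa1a by 0.36 (-0.17 to 0.89) and Hsph1 by 0.13 (-0.05 to 0.31). Dnaja3 was at 42.2, 44.9 and 48.6 CPM in Dot1l(+/+) and at 48.75, 54.3 and 50.4 CPM in Dot1l(fl/+), without overlap and with a log2 difference of 0.18 (interval -0.09 to 0.44). Dnajc25 and Dnajc4 differed by 0.41 (-0.09 to 0.90) and 0.26 (-0.13 to 0.64), and Dnajb5 and Dnajc30 by -0.12 (-0.33 to 0.09) and -0.19 (-0.53 to 0.14). Dnajc22 was at 0 in all 3 Dot1l(fl/+) libraries and at 0, 0.171 and 0.486 CPM in Dot1l(+/+), so no fold is given. Every Dot1l(fl/+) library lay above Dot1l(+/+) for 5 members (7.94%), against 5.56% of genes, and below for 3 (4.76%), against 5.97%; the median log2 fold change over members was 0.05, against -0.007 over all genes. This comparison shares its Dot1l(+/+) libraries with the one above.

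The libraries labelled Dot1l(fl/fl) were also compared with Dot1l(fl/+) directly, which tests whether 2 floxed alleles differ from 1. No member passed the adjusted threshold, with a smallest edgeR adjusted p of 0.998 for a member. At an unadjusted p under 0.05, 3 members were higher and 0 lower (4.76% of 63), against 4.02% of all genes. Of all genes, 1.86% were higher and 2.16% lower at that level, and 0.0% passed after adjustment. The 3 members were Hspa14 with a log2 fold change of 0.38 ± 0.14 (SE), Dnajb9 with 0.37 ± 0.17 and Hspa8 with 0.33 ± 0.13. DESeq2 gave 2 members at that level, Hspa14 and Dnajb9, and not Hspa8. Without Dot1l(fl/fl) 2 the log2 fold changes of Hspa14, Dnajb9 and Hspa8 were 0.26, 0.34 and 0.33. With each Dot1l(fl/+) library left out in turn, Hspa14 stayed under an unadjusted p of 0.05. Hspa8 did so only without Dot1l(fl/+) 2, and Dnajb9 only without Dot1l(fl/+) 3. With a replicate block and the offset for length and GC content, Hspa8 alone did so. Hspb8, with at most 37 counts a library, was at 1.24, 0.316 and 0.633 CPM in Dot1l(fl/+) and at 0.219 and 0 CPM in the Dot1l(fl/fl)-labelled libraries. Dnajb1 differed by 0.27 (interval -0.01 to 0.55), Hsp90ab1 by 0.08 (-0.06 to 0.21), Hsp90b1 by -0.12 (-0.31 to 0.07), Dnajc27 by -0.20 (-0.49 to 0.09) and Hspbap1 by -0.41 (-1.03 to 0.21). The median over members was 0.05, against 0.001 over all genes, and every Dot1l(fl/fl) library lay above every Dot1l(fl/+) library for 11 members (17.5%), against 10.2% of genes, and below for 6 (9.52%), against 9.57%.

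The precision of these comparisons followed the level. For the 31 members with a mean of at least 50 CPM, the 95% interval of the Dot1l(fl/fl) difference reached a median of 0.25 log2 units to each side and at most 0.32. For the 14 members between 10 and 50 CPM the median was 0.38, for the 14 between 1 and 10 CPM it was 0.67, and for the 4 under 1 CPM it was 3.84.

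Members whose promoters held a motif of 2 or 3 units were compared with the rest, as a description. In the Dot1l(fl/fl)-labelled libraries, the 12 tested members with a motif had a median log2 fold change of 0.08, with 8 above 0, and the 39 tested members with a promoter but no motif had a median of 0.13, with 26 above 0. The 3 members with a 3-unit run, Dnajb6, Hspd1 and Hspe1, lay between -0.16 and 0.08.

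Other chaperone genes, outside the symbols above, were taken from a list of 53, of which 50 were tested. In the Dot1l(fl/fl)-labelled libraries, none passed the adjusted threshold by edgeR against Dot1l(+/+), and at an unadjusted p under 0.05, 6 were higher (12.0%, against 4.24% of all genes) and 2 lower (4.00%, against 5.03%). The 8 genes of the cytosolic chaperonin TRiC, which folds actin and tubulin, each had a log2 fold change above 0, with a median of 0.19. The 6 prefoldin genes, which pass clients to TRiC, had a median of 0.12, the 4 heat shock factor genes 0.16 with 3 above 0, and the 25 partner proteins of HSP90 and HSP70 0.05. Hsf1, named after its values were seen, was the heat shock factor gene below 0: its mean was 33.4 CPM in Dot1l(+/+) and 27.2 CPM in the Dot1l(fl/fl)-labelled libraries, without overlap, with a log2 difference of -0.29 (interval -0.67 to 0.08). The 3 higher genes with the smallest p were Clpb, a mitochondrial disaggregase, with a log2 fold change of 0.45 ± 0.15 (SE), Calr, calreticulin of the endoplasmic reticulum, with 0.26 ± 0.10, and Pfdn5, a prefoldin subunit, with 0.29 ± 0.12. The 3 genes with a fold change below 0 and the smallest p were Ubqln2, which carries clients to the proteasome, at -0.26 ± 0.09, Fkbp5, an HSP90 cochaperone induced by glucocorticoids, at -0.28 ± 0.12, and Sec63, the J-domain protein of the translocon, at -0.25 ± 0.13 (SE), which did not reach an unadjusted p under 0.05. In Dot1l(fl/+), 2 of the 50 genes (4.00%), Calr and Ppid, were higher at an unadjusted p under 0.05, against 2.16% of all genes, and 0 were lower.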

How the data were processed

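Sorted-neuron RNA-seq libraries were grouped by their labels. The authors deposited raw counts of reads for every Ensembl gene. Per the submitters' processing notes, bcl2fastq 2.17, Trimmomatic 0.30, DESeq2 1.10.1 and build GRCm38.p4 were used; the aligner, the counter and its strand setting were not given in the sources used here. The authors' own comparison tables (mean, log2 fold change, standard error, Wald statistic, p-value and adjusted p-value) supplied only gene symbols. Dot1l(fl/fl) 3 was not analysed here.

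Tests used the quasi-likelihood method of edgeR 4.0.16 (R 4.3.3), with TMM factors, filterByExpr and all genotypes in 1 fit without covariates. The matching by litter that the paper describes was not modelled in this fit. P-values were two-sided, with Benjamini-Hochberg adjustment across the 17988 genes tested and a threshold of 0.05. Log2 CPM values carried a prior count of 2. Coordinates and exon lengths came from GENCODE M21, which held 99.1% of gene identifiers. Alternatives were RLE factors, DESeq2 1.42.0, no low-count filter, a minimum mean count of 50, 2 genotypes alone, a replicate block, an offset for length and GC content (splines with 4 degrees of freedom), levels on raw totals, and each library left out. The fit was tested on simulated data.

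The genes named were 34 members chosen for their role, the 5 higher and 5 lower members with the smallest p in each comparison, the 5 highest per kilobase, the 3 most dispersed, and 6 other chaperone genes. Members and lists were chosen with earlier results of these data known, and counts of genes without overlap were also taken without each library after seeing the data. Replicates are pools of embryos, so p-values measure the spread between pools; floors cover counting error only.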

Additional observations from a re-analysis of the deposited data

How the results depend on the processing

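Over all named members, no value changed direction while past the threshold. Against Dot1l(+/+), 642 of 681 alternative values for Dot1l(fl/fl) moved by less than the spread between replicates and kept their side of the threshold, as did 675 of 679 for Dot1l(fl/+); against Dot1l(fl/+), 653 of 681 did. Hspa8 alone passed in an alternative, at an edgeR adjusted p of 0.0319 with no filter and 0.0478 without Dot1l(+/+) 2. Of 43 members, 20 had a sign change in some alternative for Dot1l(fl/fl) against Dot1l(+/+). For the causes of the shifts below, the cause was not tested.

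For Dot1l(fl/fl) against Dot1l(+/+), the genes called, 0 in the main analysis, were 106 with no filter, 2 with a mean count of at least 50 and 197 with DESeq2. They were 75 without Dot1l(+/+) 2, 50 without Dot1l(fl/fl) 2, 4 without Dot1l(fl/fl) 1 and 0 without each other library. The member median, 0.105, was 0.0505 with the length and GC offset and between 0.076 and 0.1063 with a library left out, and 3 to 6 members had an unadjusted p under 0.05. For Dot1l(fl/+), no filter gave 11 genes, DESeq2 and the fit of 2 genotypes alone each gave 1 member, Dnajc13, at an unadjusted p under 0.05, and leaving out a library gave 0 or 1; the median lay between 0.0054 (without Dot1l(fl/+) 2) and 0.0527. For Dot1l(fl/fl) against Dot1l(fl/+), no filter gave 14 genes, DESeq2 gave 1 and leaving out a library gave 0 to 7 genes (7 without either Dot1l(fl/fl) library) and 1 to 5 members. The median there, 0.0479, was 0.0101 with the offset and between 0.0121 (without Dot1l(fl/fl) 1) and 0.0479 with a library left out. Counts of members without overlap grow with fewer libraries by construction: leaving out a library, a choice made after seeing the data, gave 17 to 27 above and 4 to 9 below for Dot1l(fl/fl) against Dot1l(+/+), 6 to 12 and 3 to 8 for Dot1l(fl/+), and 14 to 25 and 8 to 17 for Dot1l(fl/fl) against Dot1l(fl/+).

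The paper describes pools built from sets of all genotypes matched by litter, but no label links a replicate number to a litter. For the 7 pairs of libraries with 1 number, deviations from the group means had correlations from -0.031 to 0.045. Deviations of the 2 Dot1l(fl/fl) libraries mirror each other, so their pairs are not independent and this check cannot exclude pairing. The numbers were not taken to pair the samples, and the main fit leaves out any pairing by litter. With a replicate block, 6 genes were called for Dot1l(fl/fl) against Dot1l(+/+), with a member median of 0.076 and 5 members higher and 0 lower at an unadjusted p under 0.05, so that the call of Dnajc14 was not made there, and 4 against Dot1l(fl/+). With the block and the offset these were 17 genes (median 0.0475) and 9 genes (median -0.007, with 1 member at an unadjusted p under 0.05). Depth and the 2 Dot1l(fl/fl) libraries limit members under 10 CPM most.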
